A study of Homo sapiens with 6 samples.

Results

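The human genes for the replication-dependent histones lie mostly in a cluster on chromosome 6, and BRG1 and SMARCC2 occupancy was described there gene by gene. The members were the RefSeq protein-coding genes of a chromosome 6 window whose symbol starts with H1-, H2AC, H2BC, H3C or H4C. They lie from 26017032 to 27893891 and numbered 53 of 20033 protein-coding genes in all. H2AC1 and H2BC1 lie before that window, at chr6:25726063-25727345, and were not members. They comprised 6 linker histone H1 genes, 11 H2A, 14 H2B, 10 H3 and 12 H4 genes. A gene was counted as occupied in a library when the summit of a called peak, its point of highest signal, lay within the gene span extended by 1 kb on each side.

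Chromatin immunoprecipitation with sequencing (ChIP-seq) was done in MR49F and LNCaP, human prostate cancer cell lines, with antibodies to BRG1 and to SMARCC2. LNCaP is an androgen-dependent line from a lymph node metastasis, and MR49F is its enzalutamide-resistant derivative, kept in medium with 10 µM enzalutamide, an androgen receptor antagonist. No enzalutamide is given for LNCaP, so resistance, drug exposure and line cannot be told apart. Both lines were fixed in the same way, with 2 mM disuccinimidyl glutarate followed by 1% formaldehyde. Of 6 samples, the 4 precipitated libraries are MR49F BRG1, LNCaP BRG1, MR49F SMARCC2 and LNCaP SMARCC2, 1 for each line and antibody, and the 2 inputs were not analysed here. No value below has a replicate, no p-value was computed, and a difference between lines is a difference between libraries. As a check of the labelled tissue, all 7 of a list of prostate luminal and androgen pathway genes held a summit in MR49F BRG1, 6 in LNCaP BRG1, 7 in MR49F SMARCC2 and 6 in LNCaP SMARCC2. Of 6 genes of fibroblasts, leukocytes and endothelium, 4, 3, 2 and 2 held one in the same order (66.7%, 50.0%, 33.3% and 33.3%). Of all protein-coding genes, 64.9%, 54.4%, 62.4% and 42.8% held one. The BRG1 shares of the 6 genes were thus near those of all genes, and the lists are too small to identify a tissue. A peak does not show that a gene is expressed.

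Replication-dependent histone genes are short, mostly without introns, and are transcribed in S phase, when new chromatin needs histones. Their mRNAs end in a stem-loop in place of a poly(A) tail. Many lie head to head as an H2A and an H2B gene that share a promoter region, and the promoters carry TATA and CCAAT boxes with elements particular to a histone class. H2A, H2B, H3 and H4 proteins form the nucleosome core, and H1 binds the linker DNA between cores. BRG1, encoded by SMARCA4, is an ATPase of the SWI/SNF complex, which moves and evicts nucleosomes, and SMARCC2 (BAF170) is a scaffold subunit of the same complex.

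Promoter windows from RefSeq, assembly GRCh38.p14, are shown for the leading member of each histone class (H1-4, H2AC15, H2BC5, H3C10 and H4C8), chosen by the lowest of its peak percentiles over the 4 libraries, with ties broken by the next lowest. They are followed by the windows of H1-1 and H2BC3, the promoter-annotated members of lowest coordinate that held no summit in any library. Each window runs from 250 bases before to 50 bases after the gene start, 5′ to 3′ on the gene's strand. Capitals mark the motifs searched, on either strand. For the box that binds the general transcription machinery the letters were TATAAA. For the box that binds the factor NF-Y they were CCAAT. The octamer was searched as ATTTGCAT. The core of the promoter element of H4 genes was searched as GGTCCG. The AC box known from H1 promoters was searched as AAACACA. In the windows shown, no match shares bases with a match of another motif.
H1-4, chr6:26156079-26156378, plus strand: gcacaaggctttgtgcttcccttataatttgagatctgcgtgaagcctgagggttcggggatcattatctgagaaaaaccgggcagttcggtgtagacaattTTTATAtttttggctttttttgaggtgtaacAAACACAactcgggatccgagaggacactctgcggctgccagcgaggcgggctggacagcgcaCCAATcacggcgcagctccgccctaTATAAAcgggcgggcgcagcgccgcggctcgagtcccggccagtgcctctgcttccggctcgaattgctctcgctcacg
H2AC15, chr6:27838326-27838625, minus strand: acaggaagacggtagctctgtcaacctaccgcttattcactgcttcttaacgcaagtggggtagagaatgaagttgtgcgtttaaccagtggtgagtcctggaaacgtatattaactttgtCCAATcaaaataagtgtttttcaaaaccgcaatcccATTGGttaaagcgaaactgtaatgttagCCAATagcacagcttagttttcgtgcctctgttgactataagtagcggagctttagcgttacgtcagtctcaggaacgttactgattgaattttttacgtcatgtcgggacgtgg
H2BC5, chr6:26157871-26158170, plus strand: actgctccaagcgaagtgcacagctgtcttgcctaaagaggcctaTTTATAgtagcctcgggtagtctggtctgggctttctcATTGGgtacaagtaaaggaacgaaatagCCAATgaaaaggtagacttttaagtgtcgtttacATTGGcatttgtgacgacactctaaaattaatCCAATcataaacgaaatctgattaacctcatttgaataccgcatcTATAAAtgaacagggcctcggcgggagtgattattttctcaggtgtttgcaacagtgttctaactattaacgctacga
H3C10, chr6:27809801-27810100, plus strand: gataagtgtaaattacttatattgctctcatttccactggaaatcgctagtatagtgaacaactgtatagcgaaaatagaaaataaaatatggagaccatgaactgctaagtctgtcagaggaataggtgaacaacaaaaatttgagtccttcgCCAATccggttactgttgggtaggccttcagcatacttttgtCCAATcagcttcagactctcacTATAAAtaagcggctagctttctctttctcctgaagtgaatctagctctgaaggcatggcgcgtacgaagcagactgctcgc
H4C8, chr6:26285485-26285784, minus strand: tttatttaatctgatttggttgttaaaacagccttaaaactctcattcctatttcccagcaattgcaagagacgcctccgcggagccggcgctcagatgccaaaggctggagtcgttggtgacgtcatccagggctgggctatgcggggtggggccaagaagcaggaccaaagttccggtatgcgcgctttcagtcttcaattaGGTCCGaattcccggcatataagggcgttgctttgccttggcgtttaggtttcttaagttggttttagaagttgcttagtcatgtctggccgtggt
H1-1, chr6:26017738-26018037, minus strand: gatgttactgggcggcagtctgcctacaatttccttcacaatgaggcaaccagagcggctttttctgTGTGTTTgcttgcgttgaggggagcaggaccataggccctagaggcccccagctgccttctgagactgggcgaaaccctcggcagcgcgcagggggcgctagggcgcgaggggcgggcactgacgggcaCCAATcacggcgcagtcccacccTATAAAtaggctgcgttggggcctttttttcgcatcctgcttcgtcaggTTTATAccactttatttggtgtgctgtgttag
H2BC3, chr6:26043664-26043963, minus strand: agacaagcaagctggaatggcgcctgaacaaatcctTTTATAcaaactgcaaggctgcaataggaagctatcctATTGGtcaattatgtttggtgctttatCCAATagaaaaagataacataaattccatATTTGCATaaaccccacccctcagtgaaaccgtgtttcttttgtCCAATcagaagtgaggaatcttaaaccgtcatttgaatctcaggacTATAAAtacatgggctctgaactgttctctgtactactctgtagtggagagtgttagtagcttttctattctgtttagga

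TATA boxes were frequent in histone promoters with and without a summit, and so were CCAAT boxes except in the H4 class. Of the 53 members, 48 had a promoter entry, and H4C1, H4C3, H2AC12, H3C11 and H3C12 were named only. TATAAA was found in 64.6% of the 48 windows and in 9.63% of 15842 windows of all protein-coding genes, and CCAAT was found in 85.4% of member windows and in 36.4% of all. By class, CCAAT lay in every H1, H2A, H2B and H3 window and in 3 of 10 H4 windows (30.0%). The octamer, bound by POU-domain factors, lay in 8 of 10 H2A and 11 of 14 H2B windows, against 1.7% of all windows. GGTCCG was present in 9 of 10 H4 windows and AAACACA in 6 of 6 H1 windows, against 14.5% and 4.24% of all windows. Among the windows shown, the TATA box of H1-4 began 29 bases before the gene start, that of H2BC5 28 bases before it and that of H3C10 32 bases before it. H1-1 and H2BC3, without a summit, had theirs 31 and 30 bases before the start. The windows of H2AC15 and H4C8, both with a summit, held no TATAAA. Among the windows shown, the octamer lay in that of H2BC3 alone. TATAAA was held by 20 of 28 members with a summit in at least 1 library and by 11 of 20 without one. CCAAT was held by 24 of 28 and 17 of 20, and the octamer by 13 of 28 and 7 of 20. GGTCCG was held by 4 of 28 and 6 of 20, and AAACACA by 2 of 28 and 4 of 20. Median GC content of the window was 42.3% with a summit and 42.2% without one, against 62.7% over all promoters. These are descriptions of letters in a window, not of factor binding.

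The genes fall into 3 blocks of chromosome 6, at 26017032 to 26285534 with 32 genes, at 27132316 to 27147562 with 5 and at 27807479 to 27893891 with 16. Their median length was 487 bp, and 5 exceed 1 kb, namely H2BC4, H2BC5, H2BC12, H3C4 and H3C6. Because the genes are short and close, their extended spans overlap: the 53 windows form 32 separate loci, and 38 members share a locus with another member. Members are therefore not independent counts, and the Wilson 95% intervals given for shares cover counting error only and are too narrow. Coding sequences within a histone class are also very similar, and no source used here says how reads fitting several copies were placed, so calls at single copies are uncertain.

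In the lists as deposited, BRG1 was called at about 1 gene in 2 and SMARCC2 at fewer, least often in LNCaP, whose SMARCC2 list is the shortest. A summit was present at 25 of 53 members in MR49F BRG1 (47.2%, interval 34.4 to 60.3) and at 24 in LNCaP BRG1 (45.3%, 32.7 to 58.5). It was present at 18 members in MR49F SMARCC2 (34.0%, 22.7 to 47.4) and at 8 in LNCaP SMARCC2 (15.1%, 7.85 to 27.1). With the 25000 strongest peaks of each library the order of the lines turned, at 13 members in MR49F BRG1 and 17 in LNCaP BRG1, and at 3 in MR49F SMARCC2 and 6 in LNCaP SMARCC2. By the same rule, 64.9% of all protein-coding genes held a summit in MR49F BRG1, 54.4% in LNCaP BRG1, 62.4% in MR49F SMARCC2 and 42.8% in LNCaP SMARCC2. Long genes offer more room for a summit, so shorter genes are the closer comparison. Of 1891 other protein-coding genes of at most 3 kb, 25.2%, 17.6%, 23.1% and 10.6% held a summit in the same order, below the member share in each library, with an interval overlapping that of the members in both SMARCC2 libraries. The 19 other protein-coding genes of the same chromosome window held a summit at 11, 9, 9 and 4 genes. Counting only summits within 1 kb of a gene start, which removes gene length, 24 of 48 members were occupied in MR49F BRG1 (50.0%) and 19 in LNCaP BRG1 (39.6%), close to the 50.3% and 36.9% of all gene starts. For SMARCC2 the member shares were lower than those of all gene starts, at 31.2% (19.9 to 45.3) in MR49F and 10.4% (4.53 to 22.2) in LNCaP, against 47.1% and 25.7%.

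**Figure D1:**
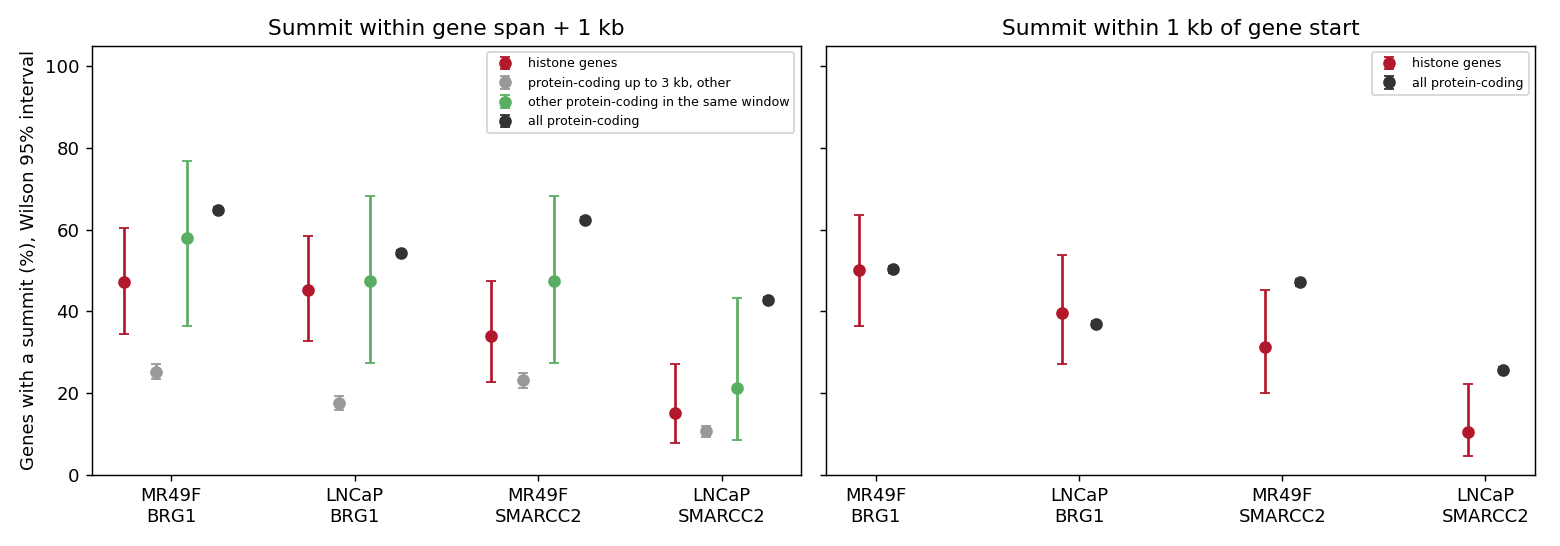
Share of genes with a peak summit in each library (y axis, %, points with Wilson 95% intervals), for the gene span extended by 1 kb on the left and for 1 kb around the gene start on the right. With BRG1 the histone genes lie close to all gene starts (50.0% and 50.3% in MR49F), and with SMARCC2 they lie below them (10.4% and 25.7% in LNCaP).

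Among H1 genes, which encode linker histones, only H1-2 and H1-4 were occupied, and the other 4 (H1-1, H1-3, H1-5 and H1-6, the last a testis-specific H1) held no summit in any library. H1-4 had a fold enrichment over local background of 5.16 in MR49F BRG1, 3.45 in LNCaP BRG1, 4.08 in MR49F SMARCC2 and 3.03 in LNCaP SMARCC2. Its 4 summits lay 582, 461, 517 and 638 bp downstream of the gene start, close to one another. The counts at those summits were 30, 24, 20 and 22 tags (sequenced fragments covering the position, solved from the deposited peak statistics). H1-2 was called with BRG1 alone, at a fold of 4.27 in MR49F and 3.19 in LNCaP, from peaks that did not overlap, 228 bp upstream and 585 bp downstream of its start.

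H2A genes had the largest share of occupied members in each library. Of 11 H2A genes, 7 held a summit in MR49F BRG1, 8 in LNCaP BRG1, 6 in MR49F SMARCC2 and 4 in LNCaP SMARCC2, and 2 (H2AC14 and H2AC16) held none anywhere. Of 14 H2B genes, the counts were 8, 7, 6 and 2, and 5 (H2BC3, H2BC6, H2BC9, H2BC10 and H2BC14) held none. Among genes of known strand there were 8 adjacent head-to-head H2A and H2B pairs, with 193 to 247 bp between the genes. The neighbours H2BC12 and H2AC12 were not among them, and no strand was known for H2AC12. At 7 of the pairs a peak was called. Of the 30 peaks counted at pairs, 20 had a summit within 1 kb of both genes, so they cannot be assigned to either gene. The others lay within 1 kb of 1 gene of the pair only.

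H2AC15 and H2BC15, 193 bp apart, had the highest MR49F BRG1 fold of the cluster, 6.94 from 32 tags, at a summit 959 bp upstream of the H2AC15 start and 765 bp downstream of that of H2BC15. A second site, 361 bp downstream of the H2AC15 start, was called at a fold of 4.23 in MR49F BRG1, 5.28 in LNCaP BRG1 and 4.07 in MR49F SMARCC2, the last 2 at 298 and 403 bp. LNCaP SMARCC2 had its summit at 1398 bp, with a fold of 2.77. H2AC15 was thus in all 4 libraries and H2BC15 in 3.

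H2AC17 and H2BC17 showed the lines' peaks on different sides of the same gene. MR49F BRG1 reached a fold of 6.66 from 36 tags and MR49F SMARCC2 6.34 from 28 tags, at summits 588 and 549 bp upstream of H2AC17, which is 348 and 309 bp downstream of the H2BC17 start. LNCaP BRG1 had a fold of 4.49 and LNCaP SMARCC2 2.99 at summits 1058 and 1131 bp downstream of the H2AC17 start. The LNCaP peaks at chr6:27891684-27892346 did not overlap an MR49F peak. H2BC17 therefore counted as occupied in MR49F alone, although a further LNCaP BRG1 peak, with its summit beyond 1 kb from the gene, overlapped the MR49F peak at chr6:27892592-27895798.

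H2BC5 was in all 4 libraries at a fold of 5.26 in MR49F BRG1, 2.65 in LNCaP BRG1, 3.79 in MR49F SMARCC2 and 3.28 in LNCaP SMARCC2, with summits 889, 1255, 1224 and 1972 bp downstream of its start. H2BC4 and H2AC6 shared a LNCaP BRG1 peak of fold 2.25, the lowest in the cluster, which had 36 tags over a background of 15.45. The overlapping MR49F BRG1 peak had 25 tags over a background of 5.42 and a fold of 4.05. LNCaP thus had the lower fold there with the higher local background and the higher tag count. Total depth is not known, so tag counts of different libraries are not directly comparable. The part of background in the lower fold was not tested. H2BC13 and H2AC13 had a fold of 6.14 in MR49F BRG1 and 3.28 in LNCaP BRG1. The SMARCC2 peak was called in LNCaP alone, at 2.56 and percentile 4.22 of its library.

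H3 and H4 genes had smaller occupied shares than H2A genes in each library. Of 10 H3 genes, 4, 4, 3 and 1 held a summit in MR49F BRG1, LNCaP BRG1, MR49F SMARCC2 and LNCaP SMARCC2, and 5 (H3C3, H3C7, H3C8, H3C11 and H3C12) held none. H3C10, the leading H3 gene, had a fold of 5.61 in MR49F BRG1, 4.05 in LNCaP BRG1 and 6.0 in MR49F SMARCC2, at 214, 603 and 410 bp downstream of its start, and no LNCaP SMARCC2 peak. Of 12 H4 genes, 4, 3, 2 and 0 held a summit, and 7 (H4C3, H4C4, H4C6, H4C7, H4C9, H4C12 and H4C13) held none. H4C8, the leading H4 gene, was called with BRG1 only, at a fold of 4.69 in MR49F and 3.84 in LNCaP.

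The strongest peak of the cluster relative to its own library was LNCaP BRG1 at H3C1 and H4C1 (chr6:26020428-26022188). It had a fold of 7.18 from 39 tags (exact Poisson interval 27.7 to 53.3) over a background of 4.54, and outranked 92.3% of the peaks of its library. No peak was called there in MR49F with either antibody or in LNCaP with SMARCC2. The next LNCaP BRG1 peak by fold, 6.07 from 29 tags, lay between H3C2 and H2AC4 (chr6:26031935-26034538), where MR49F SMARCC2 had a fold of 4.56 and LNCaP SMARCC2 3.90. MR49F BRG1 had no peak in that region, and its peak at H3C2, of fold 2.75, was a separate one.

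**Figure D2:**
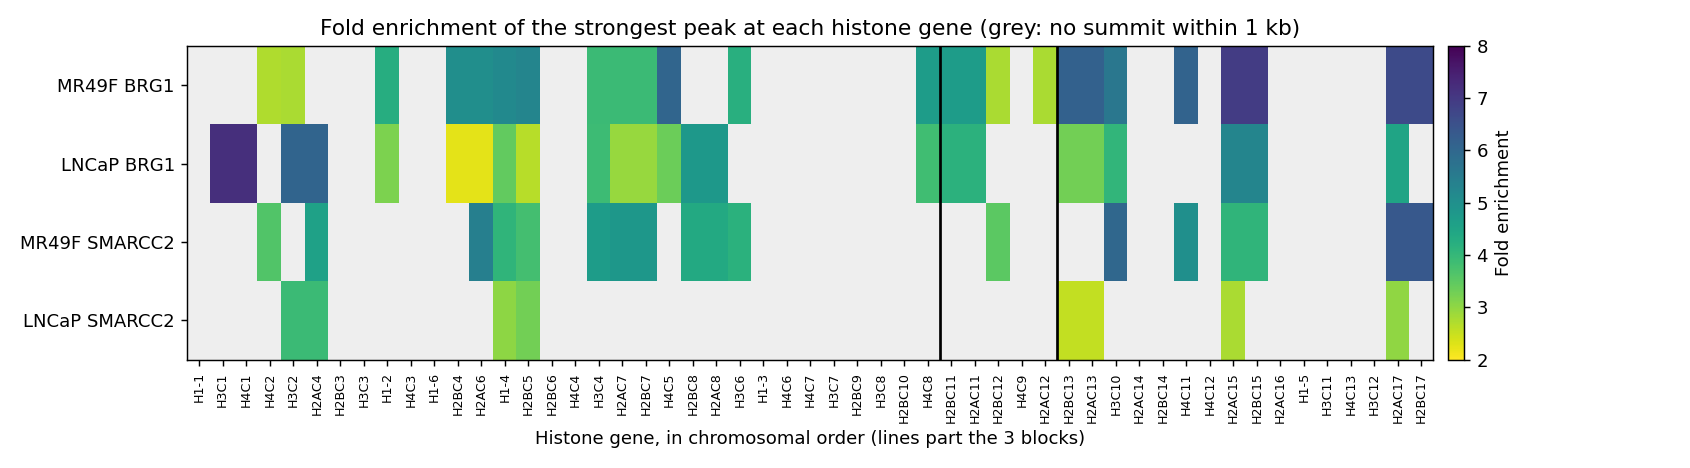
Fold enrichment over local background (colour) of the strongest peak at each of the 53 genes (x axis, chromosomal order) in the 4 libraries (rows), with grey where no summit lay within 1 kb of the gene. Vertical lines part the 3 blocks. Occupied and unoccupied genes come in runs, and LNCaP SMARCC2 is filled at 8 genes only.

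Of the 53 genes, 23 held no summit in any library (43.4%, against 28.2% of all protein-coding genes). A summit in all 4 libraries was held by 4 genes (7.55%, against 37.1%), namely H1-4, H2BC5, H2AC15 and H2AC17. For H2AC15 and H2AC17 this rests on LNCaP SMARCC2 peaks close to the caller's limit, at percentiles 2.84 and 2.03. Of other protein-coding genes of at most 3 kb, the closer comparison by length, 70.1% held none and 7.56% held one in all 4. By that comparison fewer histone genes were unoccupied, and the share in all 4 was the same. A further 3 genes were occupied in exactly 1 library, 13 in 2 and 10 in 3. The unoccupied genes were grouped along the chromosome. The longest run held 7 genes over 39.2 kb, from H1-3 through H4C6, H4C7, H3C7, H2BC9 and H3C8 to H2BC10 (26234212 to 26273412), and 1 MR49F BRG1 and 1 MR49F SMARCC2 summit lay in that stretch outside the genes' extended spans. A run of 5 genes over 25.5 kb, from H2AC16 through H1-5, H3C11 and H4C13 to H3C12 (27865317 to 27890826), held no summit of any library. By block, 13 of 32 genes of the first were occupied in MR49F BRG1, 16 in LNCaP BRG1, 11 in MR49F SMARCC2 and 4 in LNCaP SMARCC2. The counts were 4, 2, 1 and 0 of 5 in the second and 8, 6, 6 and 4 of 16 in the third.

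Summits lay mostly downstream of the gene start, as they did over all protein-coding genes, and seldom in the promoter span printed above. Of the distinct summits within 1500 bp of the nearest histone gene start, 11 of 23 in MR49F BRG1, 9 of 18 in LNCaP BRG1, 7 of 15 in MR49F SMARCC2 and 1 of 5 in LNCaP SMARCC2 lay in the first 500 bp downstream (47.8%, 50.0%, 46.7% and 20%). Over all protein-coding genes that share was 51.0%, 48.3%, 52.9% and 48.8%, near the member share in the first 3 libraries. In the 250 bp before the start, the span of the printed promoters, there was 1 summit in MR49F BRG1, that of H1-2, and none in the other 3 libraries. Over all protein-coding gene starts that interval held 4.7%, 7.2%, 3.93% and 4.71% of the summits in the same order. The median distance of member summits was 348, 430, 488 and 638 bp downstream, against 300, 251, 324 and 330 bp over all genes.

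**Figure D3:**
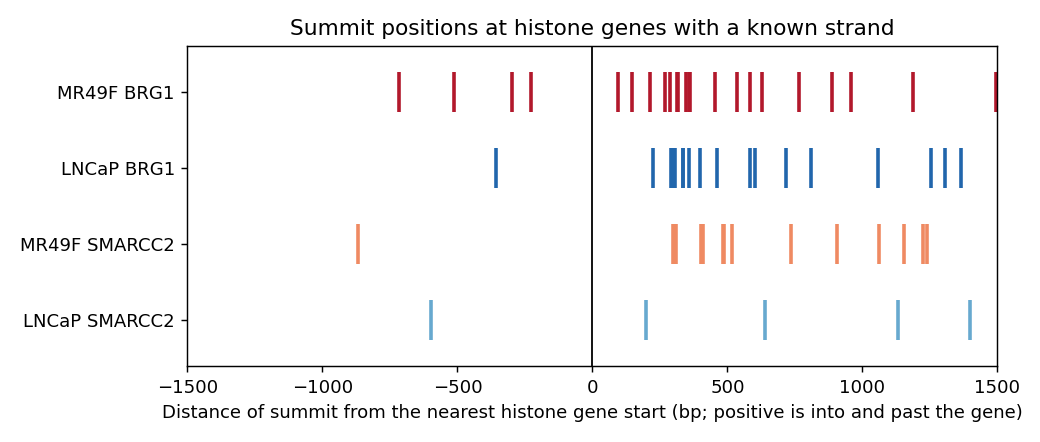
Distance in bp from the nearest histone gene start (x axis, positive in the direction of transcription) of each distinct peak summit within 1500 bp, 1 tick per peak and 1 row per library. Most ticks lie right of 0, and the 250 bp left of it hold 1 summit, in MR49F BRG1.

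The counts depend on the 1 kb limit. With no extension of the span, 13 members held a summit in MR49F BRG1, 12 in LNCaP BRG1, 11 in MR49F SMARCC2 and 3 in LNCaP SMARCC2, and with 5 kb the counts were 33, 32, 31 and 12. Just inside the limit lay an MR49F BRG1 summit 1000 bp from H2AC15 (fold 3.42), which is in the count through other summits too, and a LNCaP BRG1 summit 953 bp from H4C5 (fold 3.34). Just outside lay a LNCaP BRG1 summit 1093 bp from H1-2 (fold 4.14) and an MR49F SMARCC2 summit 1205 bp from H1-2 (fold 3.37).

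The median peak at histone genes ranked below the median peak of its library and below the median peak at gene starts. The 53 genes held 24 distinct peaks in MR49F BRG1, 20 in LNCaP BRG1, 16 in MR49F SMARCC2 and 6 in LNCaP SMARCC2. Their median fold was 4.49 (range 2.71 to 6.94), 3.72 (2.25 to 7.18), 4.30 (3.52 to 6.34) and 3.01 (2.56 to 3.90), against 4.79, 4.05, 5.27 and 4.22 over all peaks and 4.66, 3.79, 4.82 and 3.79 for peaks within 1 kb of any gene start. Ranked by q-value within the library, the median member peak stood at percentile 41.0, 32.4, 27.4 and 7.25, and the median peak at any gene start at 51.4, 48.9, 45.9 and 40.0. Among the member peaks, 1 stood in the top 10% of its library, the LNCaP BRG1 peak at H3C1 and H4C1. The median count at a member summit was 22, 24, 20 and 20.5 tags. At the median background of peaks in this chromosome window, a call needed 13 tags in MR49F BRG1, 16 in LNCaP BRG1, 12 in MR49F SMARCC2 and 18 in LNCaP SMARCC2. A gene without a call may therefore have had up to about that many tags, and fewer sufficed in MR49F than in LNCaP.

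**Figure D4:**
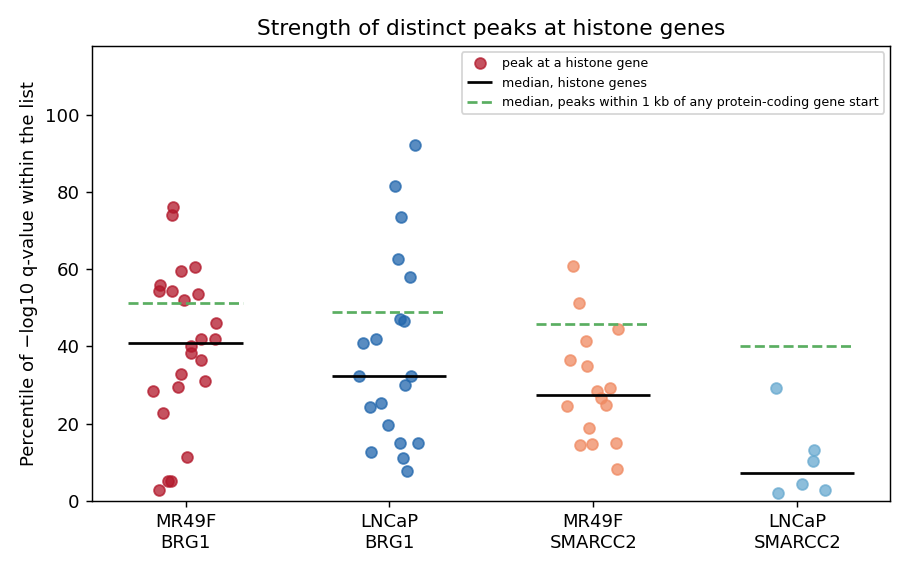
Percentile of each distinct histone gene peak among all peaks of its library, ranked by −log10 q-value (y axis), with the median of the histone gene peaks (black line) and of peaks within 1 kb of any protein-coding gene start (dashed line). The black line lies below the dashed one in all 4 libraries, furthest in LNCaP SMARCC2 (7.25 and 40.0).

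Between the lines, calls in the cluster differed in both directions with BRG1 and mostly towards MR49F with SMARCC2. A BRG1 summit was present in MR49F and not in LNCaP at 6 members (11.3%, against 15.0% of all protein-coding genes), in LNCaP and not in MR49F at 5 (9.43%, against 4.51%), in both lines at 19 (35.8%, against 49.9%) and in neither at 23 (43.4%, against 30.6%). A SMARCC2 summit was present in MR49F only at 13 members (24.5%, against 22.1%), in LNCaP only at 3 (5.66%, against 2.47%), in both at 5 (9.43%, against 40.3%) and in neither at 32 (60.4%, against 35.1%). The MR49F-only and LNCaP-only shares of all genes lay within the members' intervals for both antibodies (BRG1 5.29 to 22.6 and 4.1 to 20.3, SMARCC2 14.9 to 37.6 and 1.94 to 15.4). The share occupied in both lines lay below that of all genes. Of other protein-coding genes of at most 3 kb, 14.8% were occupied in both lines with BRG1 and 9.15% with SMARCC2. The member share was above the first and near the second. In MR49F only, 10.4% of these short genes were occupied with BRG1 and 13.9% with SMARCC2, and in LNCaP only 2.75% and 1.43%. Of these line-only shares, just that of BRG1 in MR49F lay within the members' interval, and the others lay below it. The balance depends on how many peaks are taken: with the 25000 strongest peaks of each library, BRG1 was in MR49F only at 6 members and in LNCaP only at 10, and SMARCC2 at 3 and 6.

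Occupancy in MR49F with both antibodies and in LNCaP with neither was found at 5 genes (9.43%, against 9.67% of all protein-coding genes), and the reverse at 0 (against 0.879%). H4C11 (an H4 gene) had a fold of 6.09 with BRG1 and 5.01 with SMARCC2 in MR49F, from 21 and 16 tags. H3C6 had 4.21 and 4.16, and H2BC12 2.75 and 3.52, close to the caller's limit at percentiles 5.20 and 8.29. H2BC17 had 6.66 and 6.34, and H4C2 2.71 and 3.62, the BRG1 peak of H4C2 also close to that limit at percentile 2.76. At H2BC17 and H4C2 a LNCaP BRG1 peak overlapped the region with its summit more than 1 kb from the gene, so the call in MR49F alone rests there on summit position. No LNCaP peak overlapped the MR49F peaks at H4C11 or at H2BC12 and H2AC12, nor those of H3C6. Occupancy in LNCaP with no MR49F summit was found at 2 genes (against 3.49% of all), H3C1 and H4C1, which share the strong BRG1 peak described above.

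Of the genes with a summit in both lines, the strongest peak of each line being compared whether or not the peaks overlap, 18 of 19 had the higher fold in MR49F with BRG1 (94.7%, against 75.2% of all such genes), with a median ratio of MR49F over LNCaP of 1.34 for members and 1.32 for all. With SMARCC2 it was 5 of 5 (against 84.4%), with a median ratio of 1.35 for members and 1.53 for all. At several genes, H1-2, H3C2 and H2AC17 among them, the BRG1 peaks so compared lie apart, and H3C2 had the only ratio below 1, at 0.454. Peaks of the same joined region were therefore compared too, a comparison chosen after the data were seen. MR49F BRG1 then had the higher fold in 13 of 15 regions (86.7%, against 69.3% of all such regions) and MR49F SMARCC2 in 4 of 4 (against 79.1%). A joined region can still hold summits far apart, so this is not a comparison of the same site throughout. At H4C5 the BRG1 summits lay at 26203895 in MR49F and 26205974 in LNCaP, and at H2AC17 and H2BC17 at 27893773 and 27895517. The regions with the lower BRG1 fold in MR49F were that of H2AC15 and H2BC15, at 4.23 in MR49F and 5.28 in LNCaP, and that at chr6:26195618-26197123 by H3C4, at 3.47 in MR49F and 3.89 in LNCaP. Local background was lower in MR49F, where the fold was mostly higher, and the median tags were not higher there. The median background at member peaks was 3.91 in MR49F and 5.17 in LNCaP for BRG1, and 3.55 in MR49F and 5.45 in LNCaP for SMARCC2. These medians are in the units of the peak statistics, in which 1 tag counts 1.0 in MR49F, 0.9708 in LNCaP BRG1 and 0.9197 in LNCaP SMARCC2. The median tags at member summits were 22 in MR49F and 24 in LNCaP for BRG1, and 20 in MR49F and 20.5 in LNCaP for SMARCC2. The part of background in the higher fold was not tested.

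The share of BRG1 peaks that carried SMARCC2 was smaller at histone genes than over all BRG1 peaks in both lines, and the difference was not tested. In MR49F, 13 of 24 member BRG1 peaks shared at least 1 bp with a SMARCC2 peak (54.2%, interval 35.1 to 72.1), against 79.8% of all BRG1 peaks. Against BRG1 peaks of like strength the share was 80.1%, and against those of like strength within 1 kb of a gene start 82.8%, both above the members' interval. In LNCaP it was 6 of 20 (30.0%, 14.5 to 51.9), against 55.3% of all, 39.8% at like strength and 45.8% near gene starts, the last 2 within the interval. In the other direction, 14 of 16 MR49F SMARCC2 peaks and 6 of 6 LNCaP SMARCC2 peaks at members overlapped a BRG1 peak of their line, against 75.7% and 80.1% of all SMARCC2 peaks. For SMARCC2 peaks of like strength near gene starts the shares were 88.2% in MR49F, about that of the members (87.5%), and 74.3% in LNCaP, within the members' interval of 61 to 100. Over both lines together, no member held SMARCC2 in at least 1 line and BRG1 in neither (against 2.45% of all genes). The reverse, BRG1 in at least 1 line and SMARCC2 in neither, was found at 9 members (against 6.95%). Within MR49F, H2AC4, H2BC8 and H2AC8 held a SMARCC2 summit and no BRG1 summit.

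**Figure D5:**
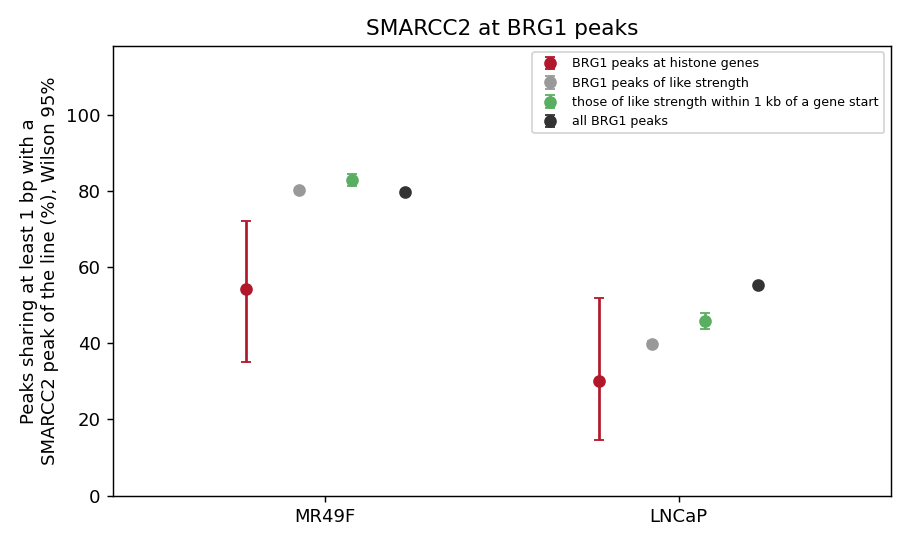
Share of BRG1 peaks that share at least 1 bp with a SMARCC2 peak of the same line (y axis, %, Wilson 95% intervals), for histone gene peaks, peaks of like strength, those of like strength near gene starts, and all peaks. In MR49F the histone gene peaks (54.2%) lie below each comparison, and in LNCaP (30.0%) their interval spans 2 of the 3.

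Joined over the 4 libraries, the member peaks formed 28 regions of the 65483 in all. BRG1 in both lines without SMARCC2 made up 5 of the 28 (17.9%, against 2.48% of all regions), at H2BC4 and H2AC6, at H4C5, at H4C8 and at 2 places by H2BC11 and H2AC11. Regions in all libraries but LNCaP SMARCC2 made up 6 (21.4%, against 8.66%). A second region by H2BC4 and H2AC6, at chr6:26124289-26126285, was among these 6. Its fold was 5.04 in MR49F BRG1, 3.24 in LNCaP BRG1 and 5.4 in MR49F SMARCC2, so that pair of genes was not without SMARCC2. Regions in all 4 libraries were 3 (10.7%, against 22.7%), at H1-4, H2BC5 and H2AC15. Regions with both antibodies in MR49F and no LNCaP peak were 4 (14.3%, against 18.3%), at H3C6, at H2BC12 and H2AC12, at H4C11, and upstream of H2AC15.

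Genes that act on histone gene expression and other histone genes were counted by the same rule. Of 20 genes for histone gene transcription and mRNA 3′ end processing, 17 held a summit in MR49F BRG1, 11 in LNCaP BRG1, 19 in MR49F SMARCC2 and 11 in LNCaP SMARCC2 (85.0%, 55.0%, 95% and 55.0%, against 64.9%, 54.4%, 62.4% and 42.8% of all protein-coding genes). These genes are longer than most histone genes, and the LNCaP BRG1 share is that of all genes. NPAT, the coactivator of histone gene transcription, had a fold of 3.15, 5.53, 4.36 and 6.55 in that order. SLBP, which binds the histone mRNA stem-loop, had 5.87 in MR49F BRG1 and 6.46 in MR49F SMARCC2 and no peak in LNCaP. LSM11, of the U7 snRNP that cuts histone pre-mRNA, had 7.99, 3.46, 12.11 and 5.81. Of 21 genes of the same histone families outside the members' window, 12, 11, 10 and 3 were occupied (57.1%, 52.4%, 47.6% and 14.3%). These shares lay within the members' intervals in MR49F BRG1, LNCaP BRG1 and LNCaP SMARCC2 and just above it in MR49F SMARCC2. The 21 include H2AC1 and H2BC1, which lie on chromosome 6 before the window and held no summit. Of 9 replication-independent variant genes, 8, 6, 8 and 4 were occupied (88.9%, 66.7%, 88.9% and 44.4%, against the same shares of all protein-coding genes, 64.9%, 54.4%, 62.4% and 42.8%).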

How the data were processed

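Peaks of the 4 precipitated libraries were used. Per the submitters' processing notes, BWA 0.7.10, SAMtools and MACS2 2.1.0 were used with build hg38. The control, duplicate removal and the placement of reads that fit several near-identical histone genes were not given in the sources used here. Peaks were called library by library, and the deposited lists give each peak a fold enrichment (a ratio to local background), a −log10 p-value, a −log10 q-value and a display score, all the authors' own. The lowest deposited −log10 q-values, between 2.001 and 2.014, correspond to a q-value of 0.01. The deposited score was not used further. The number of peaks was 44308 for MR49F BRG1, 36174 for LNCaP BRG1, 47615 for MR49F SMARCC2 and 25706 for LNCaP SMARCC2. Total depth is not in the deposited lists.

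Fold and −log10 p-value were solved together for whole tags and local background at each summit, taking tags as Poisson. This gave a whole tag count, with a relative misfit under 0.0001, for 99.79% to 100% of peaks, depending on the list. The steps recovered at least 99.97% of simulated tag counts. Gene spans and promoters came from RefSeq GRCh38.p14, the same build as hg38, on chromosomes 1 to 22, X and Y. Summits were counted 1-based. Peaks of different lists sharing at least 1 bp were joined into regions. BRG1 peaks of like strength were those in the middle 50% of the member peaks' percentiles. Percentiles rank −log10 q-values within a list, and the strongest peak of a gene is the one with the highest.

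The members, lists and motifs were chosen with earlier results of these data known. Values in every library are given for members in all 4 lists, members in 1 line with both antibodies and the leading member of each class. Members beyond these that the text names were chosen after their values were seen. Alternatives were wider or narrower spans, peak intervals in place of summits, stricter q-values, equal numbers of peaks, and ranking by fold. Python 3.11.15, NumPy 2.4.6, pandas 2.3.3, SciPy 1.17.1 and matplotlib 3.10.9 were used.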

Additional observations from a re-analysis of the deposited data

Results flagged for a closer look

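At the head-to-head genes H2BC8 and H2AC8 the antibodies pointed to different lines. SMARCC2 was called in MR49F, at a fold of 4.36 from 18 tags, and not in LNCaP, and BRG1 was called in LNCaP, at a fold of 4.80 from 25 tags, and not in MR49F. The summits lay 488 and 399 bp downstream of the H2AC8 start, and both genes count the same peaks. With 1 library per line and antibody the difference was not tested.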

How the results depend on the processing

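No paired analysis was possible because each line and antibody has 1 library. The 24 distinct member peaks or fewer per library, with medians of 20 to 24 tags, limit every count, and reads placed among near-identical genes were not examined. The median percentile of the member peaks moved by less than their spread when ranked by fold. With no extension of the gene span, members with a summit numbered 13 in MR49F BRG1, 12 in LNCaP BRG1, 11 in MR49F SMARCC2 and 3 in LNCaP SMARCC2, and SMARCC2 was in LNCaP only at 1. With 5 kb, MR49F SMARCC2 reached 31, and SMARCC2 in LNCaP only was 0. At a −log10 q-value of 5 or more, LNCaP SMARCC2 had 0 members, SMARCC2 in LNCaP only was 0, and BRG1 in MR49F only was 10. At 10 or more, members numbered 12 in MR49F BRG1, 6 in LNCaP BRG1, 3 in MR49F SMARCC2 and 0 in LNCaP SMARCC2. BRG1 was then in MR49F only at 10, and SMARCC2 in MR49F only at 3 and in LNCaP only at 0. With the 25000 strongest peaks of each library, members numbered 13 in MR49F BRG1 and 3 in MR49F SMARCC2. BRG1 was then in LNCaP only at 10, and SMARCC2 in MR49F only at 3 and in LNCaP only at 6. With the 10000 strongest, members numbered 0 in MR49F BRG1, 6 in LNCaP BRG1, 0 in MR49F SMARCC2 and 0 in LNCaP SMARCC2. BRG1 in MR49F only, SMARCC2 in MR49F only and SMARCC2 in LNCaP only were then 0 each. Counts by peak interval stayed within 1.5 times those given. Leaving out summits within 500 bp of a tRNA gene, chosen after the data were seen, changed no count.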

Other observations

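The chromosome 6 window also holds 100 tRNA genes, which RNA polymerase III transcribes. A summit lay within 500 bp of 9 of them in MR49F BRG1, 9 in LNCaP BRG1, 7 in MR49F SMARCC2 and 1 in LNCaP SMARCC2, a share of 9.0%, 9.0%, 7.0% and 1.0%. Over 443 tRNA genes of the genome the shares were 17.2%, 12.9%, 9.71% and 3.39%. Of the distinct histone gene peaks, 1 lay within 500 bp of a tRNA gene, the MR49F BRG1 peak 511 bp upstream of H4C8. Of 12 histone chaperone genes, 11, 8, 8 and 7 held a summit in the 4 libraries in the same order (91.7%, 66.7%, 66.7% and 58.3%). Of all protein-coding genes, 64.9%, 54.4%, 62.4% and 42.8% did. ATRX, which with DAXX deposits the variant H3.3, had a fold of 20.56 in MR49F BRG1, 5.07 in LNCaP BRG1, 44.65 in MR49F SMARCC2 and 8.54 in LNCaP SMARCC2. ATRX is a long gene (chrX:77504880-77786216), and these folds are of the strongest of 8, 1, 8 and 2 peaks in that order. DAXX held no summit.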
